A study of Mus musculus with 4 samples.

Results

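Splicing factors and heterogeneous nuclear ribonucleoproteins (hnRNPs) were taken from the mRNA tables by gene symbol, as all names that begin with Srsf, Hnrnp, Sf3a, Sf3b, Prpf, Lsm or U2af, or with Snrp followed by a letter from a to g, the name continuing with a digit where the family is numbered. The rule found 80 of the 16211 listed genes, and 0 names were left out for ending in -ps. The rule reads names and no values, though it was proposed with earlier results of these data known. All 80 had at least 100 reads in 1 library, the lowest of these maxima being 278 reads, and 68 had at least 1000. RefSeq lists 79 of them as protein coding and Snrpert as a pseudogene.

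Introns are removed by the spliceosome, which is assembled on each intron from small nuclear ribonucleoproteins (snRNPs). U1 binds the 5' splice site, the U2AF dimer and U2 with its SF3A and SF3B subcomplexes mark the 3' splice site and branch point, and the U4/U6.U5 tri-snRNP brings in the catalytic core. SR proteins bind exons and mostly favour the use of nearby splice sites, whereas hnRNPs coat nascent transcripts and often oppose them. Many SR proteins and hnRNPs limit their own level through exons that send the mRNA to nonsense-mediated decay.

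The cells were tumor-initiating hepatocytes (TICs) of C57BL/6 mice, given a control hairpin (shcont) or a hairpin against the long noncoding RNA H19 (shH19, labelled H19 knockdown). Each condition had 1 mRNA library. The tables hold raw reads per gene, 33578868 in the control and 34061172 in the other library. In such bulk RNA, fewer cells of a type and less RNA per cell cannot be told apart. A ratio below is the scaled reads of the library labelled H19 knockdown over those of the control, with 1 read added to each and with an exact 95% interval that covers counting error only. With 1 library per condition the spread between separate samples is unknown, no p-value is given, and "higher" and "lower" refer to these 2 libraries.

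H19 itself had 43 control reads against 40 in the library labelled H19 knockdown, a ratio of 0.931 (0.589 to 1.46), so the label was not borne out by its target. Of 10 hepatocyte markers 9 were listed, 4 of them above a log2 ratio of 0. Apob had 37279 and 30259 reads and Hnf4a 2373 and 2764, but Alb only 129 and 88. Of 7 biliary and progenitor markers, all listed, 2 were above 0: Krt19 (29919 and 39984) and Spp1 (72614 and 73248). The other 5 were below 0, among them Krt7 (6162 and 4194) and Afp (75 and 44). Of the markers of other cells, 4 of 7 macrophage, 1 of 5 lymphocyte, 2 of 5 stellate and fibroblast, 2 of 4 endothelial and 1 of 3 erythroid genes were listed. Their summed levels in the control and the other library were 103 and 77.5 CPM (reads scaled to a common library size) for macrophages, 0.651 and 0.502 for lymphocytes, 2.37 and 1.54 for stellate cells and fibroblasts, 2.13 and 2.16 for endothelium and 1.01 and 0.621 for erythroid cells. The macrophage sum is mostly Cd14 (3189 and 2417 reads), the other 3 listed genes having 284 and 207 reads together. Adgre1, Marco, Clec4f, Cd3e, Pecam1 and Hbb-bs were not listed. The part of other cells in the results below was not tested.

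The splicing genes differed little between the libraries. Together they took 1.06% of all reads in the control (354472 reads) and 1.09% in the other one (372798 reads). None of the 80 reached 1.5-fold in either direction, against 1.31% of the 11412 genes with at least 100 reads that were 1.5-fold higher and 1.39% that were 1.5-fold lower. With at least 1000 reads, as in 68 members, this background was also low, at 0.277% of 6495 genes higher and 0.262% lower. At 1.2-fold, 4 members were higher (Hnrnpa0, Srsf4, Sf3b6 and Hnrnpul1) and 1 was lower (Lsm10). That is 5.0% and 1.25% of the members, beside 10.3% and 9.89% of all genes. Among genes with at least 1000 reads, where counting error is smaller, 3 of 68 members were 1.2-fold higher and 0 were lower, beside 7.19% and 4.85% of 6495 genes.

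**Figure D1:**
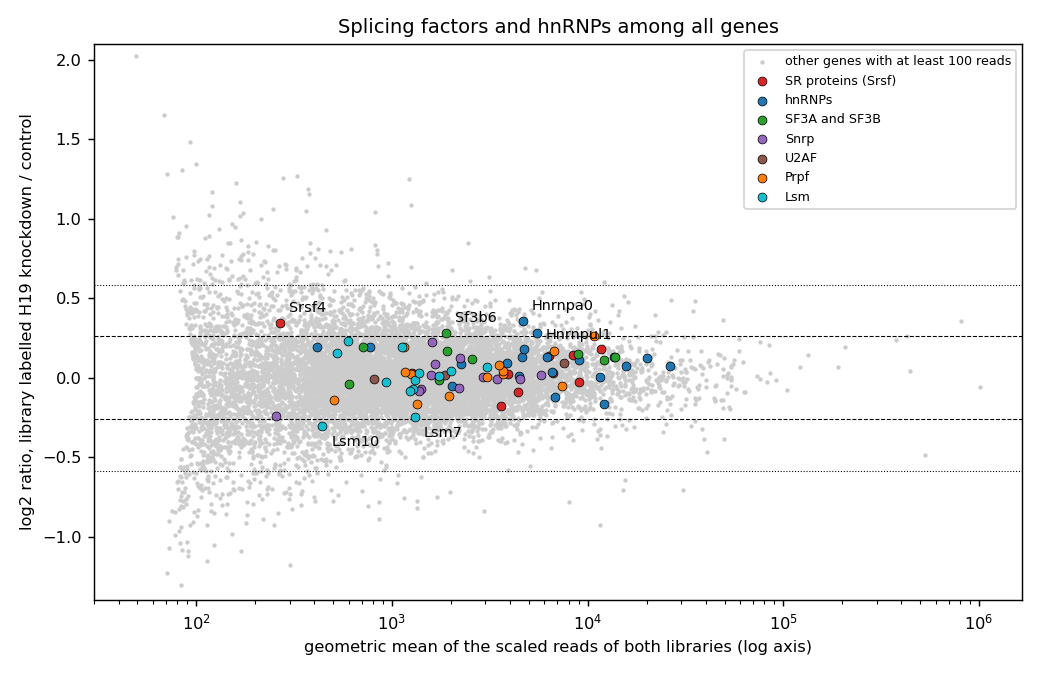
Each grey point is a gene with at least 100 reads in 1 library and each coloured point a splicing gene, with mean scaled reads on a log axis against the log2 ratio; dashed lines mark 1.2-fold and dotted lines 1.5-fold. All 80 coloured points lie between -0.31 and 0.36, inside the dotted lines, and 5 lie beyond a dashed line.

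Within this narrow range more members lay above than below a log2 ratio of 0. The median was 0.03 over the 80 members and 0.01 over all 11412 genes, and 55 members (68.8%) were above 0 against 51.9% of all genes. Scaled to the total count, 47 members (58.8%) and 47.9% of all genes were above 0. The counting interval lay wholly above 1 in 33 members (41.2%), where the background was 28.0% of all genes. It lay wholly below 1 in 9 members (11.2%), where the background was 24.1%. Such shares depend on depth, and members had more reads (median in the larger library 2787, against 1247.5 for all genes). With at least 1000 reads, 42.6% of members and 34.8% of genes were wholly above 1, and 11.8% and 27.5% wholly below. The standard deviation of the log2 ratio was 0.131 over the members and 0.235 over all genes. For those with at least 1000 reads it was 0.116 and 0.177, of which counting alone gives 0.039 and 0.044. In 53 of 80 members (66.2%) the ratio was within 1.1-fold, as in 52.9% of all genes.

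The 5 members beyond 1.2-fold and Snrpa, whose divergent neighbour differed most from it, are shown first by their promoters, because the members beyond the limit and this gene pair are those the results below turn on. Each window runs from 250 bases before to 50 bases after 1 RefSeq start site in GRCm38.p6, the first window listed for the gene, written 5' to 3' on the gene's strand. For 35 of 67 members that start is the outermost one of the gene span. Among those shown, it lies 1509 bases downstream of the outermost start for Hnrnpul1, 107 for Srsf4 and 91 for Lsm10. Capitals mark matches, on either strand, to 4 motifs. The GC box was searched as GGGCGG. The ETS-type site was searched as CCGGAAGT. The E-box was searched as CACGTG. The TATA box was searched as TATAAA. No motif contains another, and matches in a window can still share bases. The windows lie at chr13:58128507-58128806 (minus strand) for Hnrnpa0, chr4:131873387-131873686 (plus strand) for Srsf4, chr12:4817358-4817657 (plus strand) for Sf3b6, chr7:25754710-25755009 (minus strand) for Hnrnpul1, chr4:126096403-126096702 (plus strand) for Lsm10 and chr7:27196222-27196521 (minus strand) for Snrpa.
Hnrnpa0: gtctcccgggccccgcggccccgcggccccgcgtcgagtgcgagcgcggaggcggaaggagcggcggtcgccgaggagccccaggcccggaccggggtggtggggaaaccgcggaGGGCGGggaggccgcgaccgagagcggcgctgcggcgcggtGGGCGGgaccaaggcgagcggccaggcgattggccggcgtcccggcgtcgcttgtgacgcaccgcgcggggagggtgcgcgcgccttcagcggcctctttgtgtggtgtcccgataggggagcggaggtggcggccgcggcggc
Srsf4: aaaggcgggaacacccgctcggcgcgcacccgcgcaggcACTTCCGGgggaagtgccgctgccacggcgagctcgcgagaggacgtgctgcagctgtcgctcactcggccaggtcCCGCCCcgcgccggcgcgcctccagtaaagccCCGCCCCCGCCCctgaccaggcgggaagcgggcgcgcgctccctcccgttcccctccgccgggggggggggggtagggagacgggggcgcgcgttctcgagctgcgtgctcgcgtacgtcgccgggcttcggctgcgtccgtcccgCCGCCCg
Sf3b6: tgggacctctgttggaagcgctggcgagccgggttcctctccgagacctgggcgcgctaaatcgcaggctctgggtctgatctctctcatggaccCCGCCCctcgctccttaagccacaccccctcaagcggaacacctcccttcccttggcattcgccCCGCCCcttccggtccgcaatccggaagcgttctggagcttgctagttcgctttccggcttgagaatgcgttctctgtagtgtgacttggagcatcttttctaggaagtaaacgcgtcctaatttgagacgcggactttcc
Hnrnpul1: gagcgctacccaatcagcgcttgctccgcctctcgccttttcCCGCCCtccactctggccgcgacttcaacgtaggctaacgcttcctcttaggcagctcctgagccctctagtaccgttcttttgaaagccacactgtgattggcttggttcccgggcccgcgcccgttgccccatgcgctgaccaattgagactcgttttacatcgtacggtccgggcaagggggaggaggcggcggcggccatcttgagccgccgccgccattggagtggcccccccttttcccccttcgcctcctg
Lsm10: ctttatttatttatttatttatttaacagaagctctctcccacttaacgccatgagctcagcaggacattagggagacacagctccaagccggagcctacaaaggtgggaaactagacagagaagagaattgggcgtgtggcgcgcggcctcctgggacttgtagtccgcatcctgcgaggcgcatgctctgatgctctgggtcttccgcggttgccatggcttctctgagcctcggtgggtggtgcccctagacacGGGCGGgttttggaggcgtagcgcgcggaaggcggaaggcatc
Snrpa: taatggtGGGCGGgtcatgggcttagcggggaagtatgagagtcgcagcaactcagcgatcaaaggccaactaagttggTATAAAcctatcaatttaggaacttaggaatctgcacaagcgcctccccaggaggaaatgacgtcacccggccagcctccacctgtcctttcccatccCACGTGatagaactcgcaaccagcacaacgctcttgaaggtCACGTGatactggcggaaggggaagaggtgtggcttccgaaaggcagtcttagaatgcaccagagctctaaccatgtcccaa

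All 6 windows hold GGGCGG. The Srsf4 window also holds CCGGAAGT, and the Snrpa window TATAAA and CACGTG. A window was listed for 67 of the 80 members. GGGCGG was found in 47 of these (70.1%), in 67.2% of 8648 genes with at least 100 reads and in 35.9% of all 27025 genes with a window. CCGGAAGT was in 11 member windows (16.4%), 9.35% of windows of genes with at least 100 reads and 4.0% of all windows, with Srsf4, Srsf5, Hnrnpd, Sf3a1, Sf3b2 and Lsm5 among them. CACGTG was in 8 (11.9%, against 10.7% and 7.24%) and TATAAA in 6 (8.96%, against 6.58% and 14.2%). CpG dinucleotides were frequent, with a median of 25 per member window, 22 in expressed genes and 7 over all windows. The Hnrnpa0 window held 52 and the Srsf4 window 49, whereas the Lsm10 window held 19 and the Snrpa window 13. These are matches of letters and say nothing of binding.

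SR proteins carry RNA recognition motifs and a tail of arginine and serine repeats. Of 10 measured SR genes 7 were above 0, where 51.9% of all genes were, and 3 below. The SR genes had a median log2 ratio of 0.03 and a summed ratio of 1.04 (1.03 to 1.05). Srsf4 (SRp75) had the fewest reads of the family, 237 in the control against 301, and the highest ratio, 1.27, with a wide interval of 1.07 to 1.51. Its gene span overlaps the listed Gm12992, and without known strand use the reads of overlapping genes cannot be told apart. In all, 19 members overlap a listed gene, and not every such overlap is named below. Srsf1 (SF2/ASF), the founding member and a known oncoprotein, had the most reads, 10977 and 12438, and was at 1.13 (1.10 to 1.16). Srsf5 was close to it, with 8014 and 8869 reads and a ratio of 1.11 (1.07 to 1.14). It lies on chromosome 12, and its log2 ratio of 0.14 was -0.13 with that chromosome's median subtracted.

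Srsf2 (SC35), which also acts in transcription, had 6033 and 6644 reads and a ratio of 1.10. Srsf3, Srsf6, Srsf7 and Srsf9 lay between 0.980 and 1.02, and the intervals of all 4 included 1. Srsf10 stood at the other end: this factor, which turns into a splicing repressor when it is dephosphorylated, had 3841 and 3401 reads, a ratio of 0.885 (0.844 to 0.927). Srsf11 was likewise lower, with 4533 and 4269 reads and a ratio of 0.941 (0.902 to 0.981). There were 2.86 Srsf1 reads per Srsf10 read in the control and 3.66 in the other library, a 1.28-fold difference (1.21 to 1.35) that does not depend on the scaling. This and the other pairs of members below were chosen after their values were seen. Srsf10 lies on chromosome 4, and its log2 ratio of -0.18 was -0.002 with that chromosome's median subtracted. Srsf1, on chromosome 11, was at 0.14 after the same step.

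Of the 20 hnRNPs 17 were above 0, where 51.9% of all genes were, at a median of 0.10. Scaled to the total count 15 of 20 hnRNPs, and 47.9% of all genes, were above 0, the hnRNPs at a median of 0.08. Their summed reads were 157115 and 165491, a ratio of 1.05 (1.04 to 1.06). The spread was widest among the A/B and D types, which share a pair of RNA recognition motifs and a glycine-rich tail. Hnrnpa0, a single-exon gene of this group that binds AU-rich elements, had 4120 reads in the control and 5288 under the H19 hairpin. Its ratio of 1.28 (1.23 to 1.34) was the highest of all 80 members. Hnrnpa2b1, which is also known from microRNA sorting, had 12874 and 11467 reads and the lowest ratio of the family, 0.890 (0.868 to 0.913). It lies on chromosome 6, and its log2 ratio of -0.17 was -0.07 with that chromosome's median subtracted. Hnrnpdl, at -0.13, was then the lowest of the family.

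These relatives therefore differed in balance. Hnrnpa0 reads were 0.320 of Hnrnpa2b1 reads in the control and 0.461 in the other library, a 1.44-fold difference (1.37 to 1.51). Hnrnpa1, a broad splicing silencer, had 15320 and 16116 reads (1.05), Hnrnpa3 had 3723 and 3969 (1.06) and Hnrnpab had 12943 and 14197 (1.10). Hnrnpd (AUF1), which promotes the decay of AU-rich mRNAs, had 723 and 828 reads and a ratio of 1.14 (1.03 to 1.27). Its neighbour and relative Hnrnpdl was lower, with 7096 and 6521 reads and a ratio of 0.918 (0.888 to 0.950), and overlaps the listed Enoph1. Hnrnpa1 and several small snRNP proteins have near-identical processed copies in the mouse genome, so their counts are uncertain where reads could not be placed uniquely.

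All 3 genes of the U type were above 0; these proteins bind RNA and chromatin through a SAP domain and an RGG-rich tail. Hnrnpul1 had 4974 and 6038 reads, a ratio of 1.21 (1.17 to 1.26), and Hnrnpu (SAF-A) had 19180 and 20888, a ratio of 1.09 (1.07 to 1.11). Hnrnpul2 had 4426 and 4461, a ratio of 1.01 (0.966 to 1.05) that was below 1 when scaled to the total count. Hnrnpul1 and Hnrnpul2 thus differed in balance by 1.204-fold (1.14 to 1.27). Of the F/H type, which binds G-rich runs, Hnrnph1 (5905 and 6481 reads) and Hnrnph2 (4404 and 4829) were both at 1.10, Hnrnph3 was at 1.14 (0.996 to 1.32) with 385 and 441 reads, and Hnrnpf had 11523 and 11559 reads and a ratio of 1.00. Hnrnpf was below 1 when scaled to the total count, and Hnrnph3 overlaps the listed Rufy2.

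Hnrnpl, which binds CA repeats, had 8668 and 9357 reads (1.08), and its relative Hnrnpll 2185 and 2325 (1.06). Hnrnpk, a KH-domain protein that binds C-rich runs, was the most counted member of all, with 25643 and 27002 reads and a ratio of 1.05 (1.03 to 1.07). The antagonist of epithelial splicing Hnrnpm had 4459 and 5058 reads (1.13). Hnrnpc, which binds U-rich runs, had 6509 and 6679 (1.03). Hnrnpr had 2055 and 1987 (0.966, 0.908 to 1.03), an interval that included 1.

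**Figure D2:**
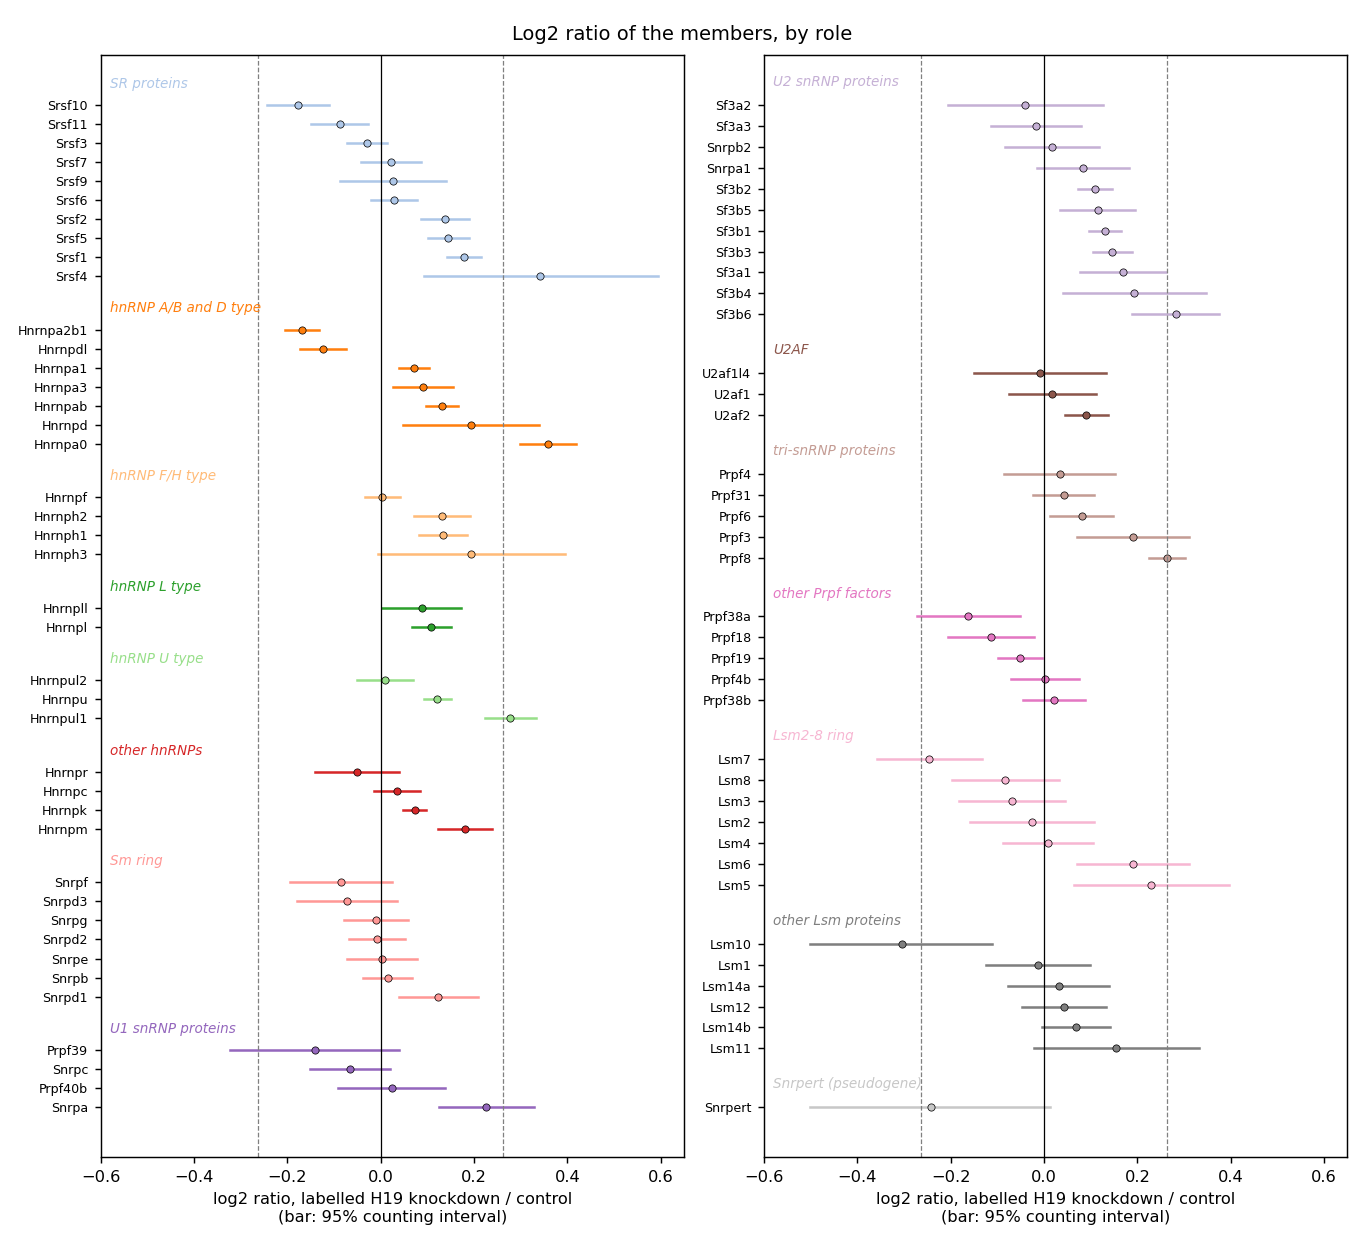
Points give the log2 ratio of 79 genes on a linear axis, grouped by role, and bars the 95% counting interval; dashed lines mark 1.2-fold. Hnrnpa0 at 0.36 and Lsm10 at -0.31 are the ends of the range, and the 5 tri-snRNP genes all lie right of 0.

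Sm proteins form the ring of 7 that encircles the snRNA of most snRNPs, and each snRNP needs 1 copy of each. The ring was flat: its summed reads were 21561 and 21636, a ratio of 1.00 (0.984 to 1.02), with 3 members above 0 and 4 below. Scaled to the total count, 1 of 7 was above 0. Snrpd1 was the exception, with 2130 and 2323 reads and a ratio of 1.09 (1.03 to 1.16). The other 6, Snrpb, Snrpd2, Snrpd3, Snrpe, Snrpf and Snrpg, lay between 0.942 and 1.01 and their intervals included 1. Snrpb, the most counted, had 5712 and 5778 reads. Snrpert, the listed pseudogene, had 278 and 235 reads, a ratio of 0.845 (0.707 to 1.01), and lies in the span of Rnf24.

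Among U1 proteins, Snrpa, which also regulates its own polyadenylation, had 1476 reads in the control and 1729 in the other library, a ratio of 1.17 (1.09 to 1.26). Snrpc, which contacts the 5' splice site, had 2253 and 2156, a ratio of 0.956 (0.901 to 1.01). Snrpa reads per Snrpc read therefore differed by 1.22-fold (1.12 to 1.34). Of the U1-associated Prpf proteins, Prpf40b, a WW-domain factor, had 1236 and 1258 reads and was at 1.02 (0.939 to 1.10). Prpf39, with 529 and 480 reads, was at 0.907 (0.799 to 1.03) and overlaps the listed Fkbp3.

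Of the 11 U2 proteins 9 were above 0 (8 if total counts set the scale), beside 51.9% of all genes. The intervals of 7 lay wholly above 1, where those of 28.0% of all genes and 34.8% of genes with at least 1000 reads did. The U2 genes had 45496 and 49590 summed reads, a ratio of 1.09 (1.08 to 1.10). Sf3b6 (p14), which touches the branch point adenosine, had 1715 and 2087 reads, a ratio of 1.22 (1.14 to 1.30) and the highest of the group. Sf3b1, the scaffold that is recurrently mutated in blood cancers, had 13179 and 14446 reads and a ratio of 1.09 (1.07 to 1.12). Sf3b2 (11699 and 12632) was at 1.08, Sf3b3 (8451 and 9363) at 1.11, Sf3b4 (663 and 759) at 1.14 and Sf3b5 (2455 and 2661) at 1.08. These 6 Sf3b genes had intervals above 1, but Sf3b6 was at a log2 ratio of 0.006 with its chromosome's median subtracted. Phf5a, an SF3B subunit outside the naming rule, had 2754 and 2551 reads and a ratio of 0.925 (0.876 to 0.977).

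SF3A was mixed: Sf3a1 had 1795 and 2021 reads (1.12, 1.05 to 1.2), Sf3a2 607 and 591 (0.973, 0.867 to 1.09) and Sf3a3 1748 and 1729 (0.988, 0.924 to 1.06). The U2-specific Snrpa1 and Snrpb2, which bind the snRNA as a dimer, were at 1.06 and 1.01, and both intervals included 1. Of the U2AF genes, the large subunit U2af2, which reads the polypyrimidine tract, had 7359 and 7840 reads (1.06, 1.03 to 1.10). The small subunit U2af1, which reads the AG at the 3' splice site, had 1859 and 1884 (1.01) and its paralog U2af1l4 had 813 and 809 (0.994). Scaled to the total count 1 of these 3 was above 0.

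The 5 tri-snRNP genes were all above 0, under every scaling run and with the chromosome median subtracted. With the main scaling 51.9% of all genes were above 0. Prpf8, the core of the U5 snRNP and of the active site, had 9841 reads in the control and 11819 under the H19 hairpin. Its ratio of 1.1997 (1.17 to 1.23) was just short of the 1.2-fold limit, which it passed with DESeq2 size factors. Prpf3, of the U4/U6 snRNP, had 1075 and 1228 reads (1.14, 1.05 to 1.24), Prpf6, which bridges U5 and U4/U6, had 3440 and 3642 (1.06), and Prpf31 and Prpf4 were at 1.03 and 1.02 with intervals that included 1. Of 10 other U5 and tri-snRNP proteins outside the naming rule, picked after their values were seen, 4 were above 0. Of their intervals 3 were above 1 and 2 below, near the 28.0% and 24.1% of all genes. Snrnp200, the U5 helicase that works beside Prpf8, had 9054 and 10579 reads and a ratio of 1.17 (1.13 to 1.201). Snrnp27 had 1438 and 1212 (0.842, 0.779 to 0.909) and Txnl4a, a small U5 protein, 1805 and 1633 (0.904, 0.845 to 0.967).

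Of the 5 other Prpf factors 3 had intervals below 1 and none above. Such intervals were found in 24.1% of all genes and in 27.5% of those with at least 1000 reads. With the chromosome median subtracted 2 of the 3 Prpf factors turned sign, Prpf38a to 0.012 and Prpf19 to 0.042. Prpf38a, which joins the complex before activation, had 1418 and 1268 reads, a ratio of 0.893 (0.827 to 0.964). Its span overlaps the listed Orc1. Prpf18, needed for the second catalytic step, had 2029 and 1877 (0.924, 0.867 to 0.984). The ubiquitin ligase Prpf19, at the heart of the complex named after it, had 7525 and 7270 (0.965, 0.934 to 0.997). The kinase Prpf4b was at 1.00 and Prpf38b at 1.02.

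Lsm proteins resemble Sm proteins. Lsm2 to Lsm8 form the ring on U6 snRNA, and its members were split, 3 above 0 and 4 below, with a summed ratio of 0.986 (0.956 to 1.02). Total-count scaling put 2 above 0. Lsm7 had 1418 reads in the control and 1197 in the other library, a ratio of 0.843 (0.780 to 0.911). Lsm5 had 552 and 648 (1.17, 1.05 to 1.32) and Lsm6 had 1054 and 1204 (1.14, 1.05 to 1.24). There were 0.389 Lsm5 reads per Lsm7 read in the control and 0.541 in the other library, a 1.39-fold difference (1.21 to 1.60) between 2 subunits of the same ring. Lsm2, Lsm3, Lsm4 and Lsm8 were between 0.944 and 1.01 with intervals that included 1.

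Lsm10 and Lsm11 replace a pair of Sm proteins in the U7 snRNP, which trims the 3' ends of histone mRNAs. Lsm10 had 489 and 396 reads, and its ratio of 0.809 (0.707 to 0.925) was the lowest of the 80 members. Lsm11 had 497 and 554 (1.11, 0.985 to 1.26), so the partners differed by 1.38-fold (1.15 to 1.65) in balance. Lsm10 lies on chromosome 4. With the chromosome medians subtracted Lsm10 was at a log2 ratio of -0.13 and Lsm11 at 0.12, and Prpf39, at -0.42, was the lowest member. Lsm1, of the cytoplasmic decay ring, was at 0.991, Lsm12 at 1.03, and Lsm14a and Lsm14b, which repress translation in P-bodies, at 1.02 and 1.05. Lsm12 and Lsm14b had 1971 and 2032, and 2987 and 3133 reads.

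Levels were also compared per exon length, as scaled reads per kilobase of annotated exon in CPM units. The lengths came from GENCODE vM1, which covers all 80 genes but may differ from the authors' gene models. Each is the union of all annotated exons of a gene, so a long annotated exon lowers the level. In the control the level ran from 1.96 for Srsf4 to 403 for Hnrnpa1, followed by Hnrnpk at 253. The Sm ring ran from 48.3 for Snrpf to 217 for Snrpd2, and the U6 ring from 7.56 for Lsm6 to 89.6 for Lsm7. Most of the latter range comes from the lengths, as Lsm6 had 1054 control reads over 4125 bases and Lsm7 1418 over 468. Of the SR proteins Srsf2, at 60.3, Srsf5, at 59.5, and Srsf1, at 56.9, had the highest levels. The U7 pair was at 15.3 for Lsm10 and 2.28 for Lsm11, with 489 and 497 control reads over 943 and 6453 bases. In the library labelled H19 knockdown the ends were again Srsf4 at 2.48 and Hnrnpa1 at 423, and the range over members was far wider than any ratio between the libraries.

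**Figure D3:**
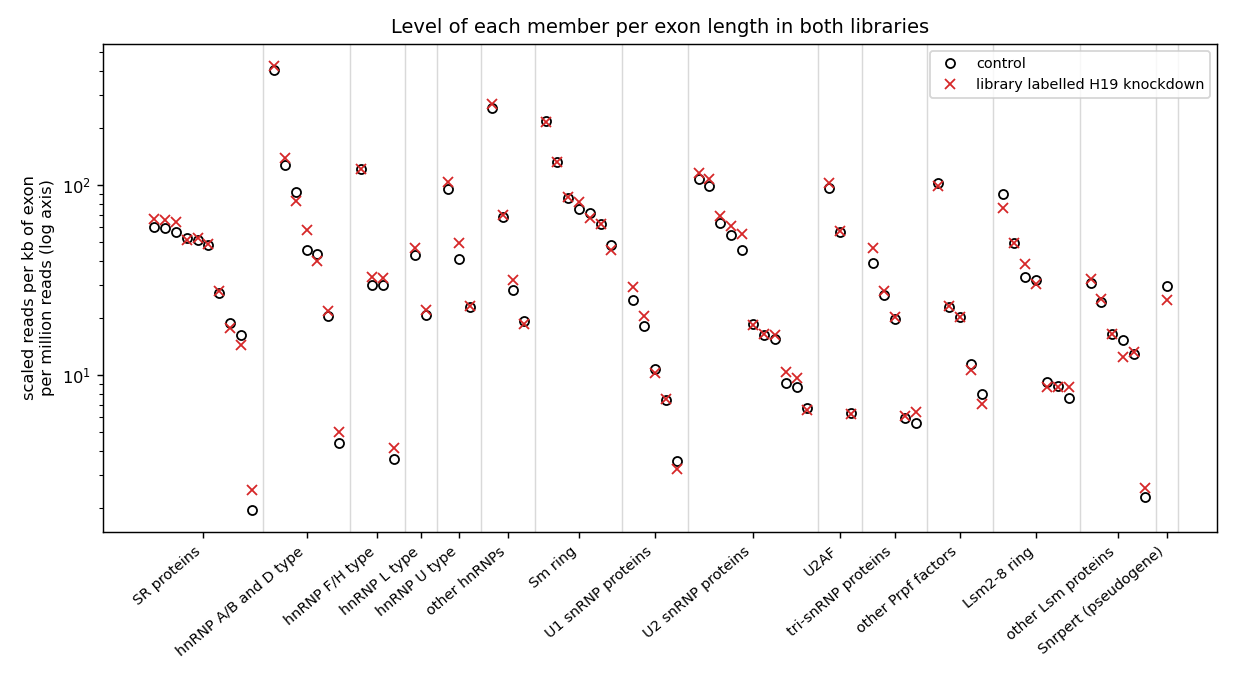
Circles (control) and crosses (library labelled H19 knockdown) give each gene's scaled reads per kb of exon, as CPM, on a log axis, by role and in falling order within a role. The symbols of a gene nearly coincide, while genes range from 1.96 to 403 in the control.

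Longer genes of the table had slightly higher ratios in general, and the rank correlation among the members was similar. Across the 80 members Spearman's rho between exon length and log2 ratio was 0.17, and across 11032 genes with at least 100 reads it was 0.16; the points share the same 2 libraries. Members with under 1.5 kb of exon had a median of 0.00 (9 of 17 above 0), those from 1.5 to 4 kb 0.07 (24 of 31) and those of 4 kb or more 0.07 (22 of 32). Over all genes the medians of these classes were -0.05, -0.01 and 0.04, so the members lay above the background in each class. Above 0 were 40.4% of all short genes, 2212 of 4716 of middle length and 59.2% of the long ones. The part of transcript length in the results on the short Sm and Lsm genes was not tested.

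Position moved with several of these results. Over genes with at least 100 reads the median log2 ratio was -0.17 on chromosome 4 (646 genes) and 0.28 on chromosome 12 (357 genes), with -0.10 on chromosome 6 and -0.09 on chromosome 19. Srsf10 and Prpf38a lie on chromosome 4, where their log2 ratios were -0.18 and -0.16, and Sf3b6 on chromosome 12 was at 0.28. With the chromosome median subtracted these 3 were at -0.002, 0.012 and 0.006. Other members stood apart from their neighbours. Srsf4, also on chromosome 4, was at 0.52 after the subtraction, Lsm5 on chromosome 6 at 0.33, and Hnrnpa0 on chromosome 13 stayed at 0.33. Prpf39 on chromosome 12 was at -0.42 and Lsm7 on chromosome 10 at -0.31, and Lsm10 was at -0.13. The part of chromosome in each of these ratios was not tested.

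**Figure D4:**
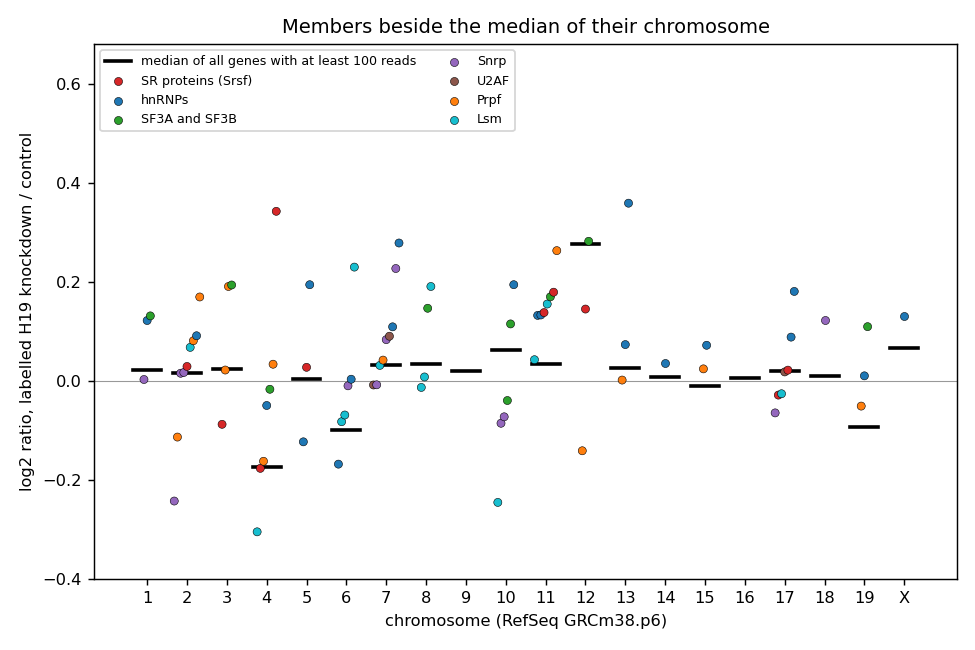
Points give the log2 ratio of each splicing gene by chromosome and black bars the median of all genes with at least 100 reads there, on linear axes. On chromosome 12 the bar is at 0.28 with Sf3b6 on it, and on chromosome 4 the bar is at -0.17 with Srsf4 far above it.

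Some of these genes start back to back with another gene, and no share over all genes is given here. For 18 members RefSeq placed the start of a gene with at least 100 reads on the other strand within 1000 bases, a search made after the members' values were known. Of the 18 pairs 10 had log2 ratios of the same sign. Some intervals included 1, so the sign of those genes is uncertain, and whether partners follow members was not tested. Snrpa and BC024978 start 21 bases apart, overlap, and were at 0.23 and -0.66, BC024978 having 127 and 80 reads (ratio interval 0.470 to 0.839). Srsf2 was at 0.14 while Mfsd11, which overlaps its span and had 1446 and 1161 reads, was at -0.32. Lsm7 was at -0.25 and its neighbour Sppl2b, 66 bases away with 1595 and 1587 reads, at -0.01. By contrast Prpf38a and the replication gene Orc1 (378 and 318 reads) were both lower, at -0.16 and -0.25, and Hnrnpa1 and the heterochromatin protein gene Cbx5 (11687 and 13312 reads) both higher, at 0.07 and 0.19. Hnrnpa2b1, at -0.17, starts beside Cbx3, which had 3654 and 3628 reads and was at -0.01.

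**Figure D5:**
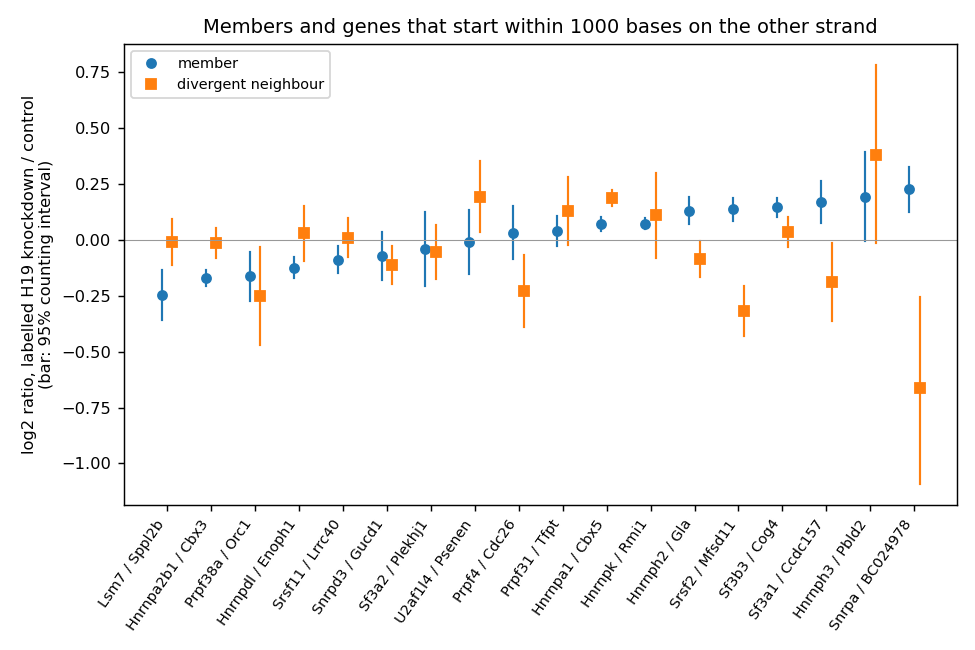
Circles give the log2 ratio of 18 splicing genes in rising order and squares that of the gene starting within 1000 bases on the other strand, with 95% counting intervals as bars, on a linear axis. In 10 of the 18 pairs the square and the circle lie on the same side of 0. BC024978 at -0.66 lies farthest from its partner Snrpa at 0.23.

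The rest of the splicing machinery was described by 7 further lists of 173 genes in all, of which 168 were listed and 166 had at least 100 reads. None of the 166 reached 1.5-fold, 8 were 1.2-fold higher (4.82%, against 10.3% of all genes) and 3 lower (1.81%, against 9.89%), and the median was 0.04. At 1.5-fold the background was 1.31% higher and 1.39% lower. For the counts above 0 that follow, the share of all genes was 51.9%. Of 36 snRNP and branch site proteins outside the naming rule 17 were above 0 and 0 reached 1.2-fold in either direction, from Snrnp27 (1438 and 1212 reads, -0.25) and Snrnp48 (-0.16) at one end to Zmat5 (0.21) and Snrnp200 (0.22). Of 31 factors of the Prp19 complex and the catalytic steps 23 were above 0 and none reached 1.2-fold, with Bud31 (3919 and 3364) at -0.22, Syf2 at -0.22, Snw1 at 0.17 and the helicase Aqr (3489 and 4070) at 0.22. Snw1 lies on chromosome 12 and was at -0.10 with the chromosome median subtracted.

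Of 20 genes of the exon junction complex and mRNA export 11 were above 0. Magoh, a core subunit of that complex, had 1743 and 1333 reads, a ratio of 0.764 (0.711 to 0.821), the only one 1.2-fold lower, and its paralog Magohb had 515 and 455 (0.883, 0.776 to 1.00). Pnn was 1.27-fold higher, with 1493 and 1905 reads, and the export adaptor Alyref 1.201-fold, with 3882 and 4668. Magoh lies on chromosome 4 and Pnn on chromosome 12, and with the chromosome medians subtracted they were at log2 ratios of -0.21 and 0.07.

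Other splicing regulators had the widest range of the lists, with 31 of 46 above 0, a median of 0.10, 5 genes 1.2-fold higher (10.9%, near the 10.3% of all genes) and 1 lower. Khdrbs3, a STAR-domain regulator of alternative exons, had 263 and 385 reads, a ratio of 1.46 (1.25 to 1.72), and Nova1, better known from neurons and also on chromosome 12, 96 and 129 (1.34, 1.02 to 1.77). With the chromosome median subtracted Nova1 was at a log2 ratio of 0.15, and Rbm25, another of the 5 on that chromosome (2500 and 3120 reads), at 0.04 instead of 0.32. Taf15 and Rbm47 were the others. Rbm4 was the lowest, with 523 and 375 reads and a ratio of 0.717 (0.626 to 0.819). Tardbp (TDP-43) had 6205 and 5202 (0.838, 0.807 to 0.869). It lies on chromosome 4, and its log2 ratio of -0.26 was -0.08 after the subtraction.

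Of 10 kinases, phosphatases and import factors of SR proteins with at least 100 reads 3 were above 0 and none reached 1.2-fold. Srpk3, under that minimum with 75 and 45 reads, was at a ratio of 0.605 (0.405 to 0.879). Clk1, which phosphorylates SR proteins in the nucleus, had 4514 and 3974 reads (-0.19), Clk3 was at -0.15, Ppm1g at 0.15 and Dyrk1a (1781 and 2084) at 0.23. Among 13 snRNP assembly genes 8 were above 0. Tgs1, which makes the trimethyl cap of snRNAs, was at 0.783 with 554 and 434 reads and lies on chromosome 4, Gemin7 at 0.866, Gemin6 at 1.13 and Gemin5, which recognises snRNAs, at 1.15 with 3177 and 3662. Of 10 genes of nonsense-mediated decay 6 were above 0, with Upf3a (897 and 1091 reads) highest at 1.21 (1.11 to 1.33), Smg9 at 1.09, and Upf3b (0.948) and Smg5 (0.947) lowest.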

How the data were processed

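The deposited mRNA tables hold raw read counts per gene symbol that the authors made from trimmed reads mapped to GRCm38 with STAR 2.5.2b, using uniquely mapped reads, per the series' design text; Trimmomatic 0.36 is named in the submitters' processing notes. For the counting program, annotation and strand use the sources used here give nothing. The 2 small RNA libraries were not used here. Counts were scaled with TMM effective library sizes over all 16211 genes (edgeR 4.0.16, R 4.3.3), which corrects for depth and for a few dominant genes. Ratios had 1 count added, and intervals were exact conditional binomial 95% intervals, except those of pairs of genes, which were normal approximations on the log scale. Since PCR copies of a molecule are counted as separate reads, both cover counting error only. Nothing was tested, as each group held 1 library; the interval script was checked on simulated data.

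A gene needed at least 100 reads in 1 library. Named were, in each family, the members with the highest and lowest ratio and the most reads, the 10 highest and 10 lowest of all, and the 2 highest and 2 lowest of each further list; the remaining members are given too, except 1 that is counted in the groups but not reported here by name. Members, lists and marker genes were chosen with earlier results of these data known. Chromosomes, start sites and promoter sequences came from RefSeq (GRCm38.p6), by symbol. Tables were handled in Python 3.11.15 (pandas 2.3.3, numpy 2.4.6), intervals in scipy 1.17.1 and plots in matplotlib 3.10.9. DESeq2 1.42.0 gave size factors for an alternative scaling. Other scalings, added counts, read minimums and chromosome medians were also tried. Counts of protein features were planned and not run, as no protein table was used here.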

Additional observations from a re-analysis of the deposited data

How the results depend on the processing

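No member reached 1.5-fold under any alternative run. Against 4 members 1.2-fold higher and 1 lower, scaling to the total count gave 2 higher (Hnrnpa0 and Srsf4) and 2 lower (Lsm10 and Lsm7), because it lowers every log2 ratio by 0.02. Subtracting the median of each chromosome gave 3 higher (Hnrnpa0, Srsf4 and Lsm5) and 2 lower (Lsm7 and Prpf39). With at least 1000 reads 0 were lower, and leaving out the 6 Lsm proteins that act outside splicing likewise gave 0 lower, since both settings remove Lsm10. DESeq2 size factors gave 5 higher, adding Prpf8; TMM without the 10 most counted genes, 5 or 0.5 counts added, a minimum of 20 reads, no minimum and leaving out Snrpert, the last chosen after seeing the data, kept 4 and 1. The median log2 ratio of the members stayed between 0.02 and 0.05, and that of H19 between -0.14 and -0.09.

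Except for chromosome medians, the other settings shifted log2 ratios very little, so values under them could hardly leave the counting interval. For 56 named genes 325 of 336 values under other settings stayed within that interval. The 11 others all came from subtracting chromosome medians: 9 moved and 2 changed sign, Prpf38a to 0.012 and Snw1 to -0.102. Over all 80 members this subtraction turned the sign of 15, of which 3 had an interval without 1: Prpf38a, Prpf19 (to 0.042) and Srsf5 (to -0.131). The cause was not tested.

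No paired analysis was possible because each group held 1 library. Depth limits the members with under 1000 reads in both libraries most, Srsf4, Snrpert, Hnrnph3 and Lsm10 among them.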
